A study of Mus musculus with 4 samples.

Results

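The cytosolic ribosomal protein genes encode the proteins of the small (Rps) and large (Rpl) subunits of the ribosome that translates nuclear messages. They were taken by symbol: every gene named Rpl or Rps followed by a digit, with Rplp0, Rplp1, Rplp2 and Rpsa, leaving out entries with -ps (annotated pseudogenes) and the Rps6k kinases. This rule found 87 of the 27998 genes in the files, 34 with an Rps symbol and 53 with an Rpl symbol. Of the 87, Rpl6l is annotated as a processed pseudogene in GENCODE M21, and Rps19bp1 encodes a protein that binds a ribosomal protein and is not a subunit itself. Both were kept because the symbol rule takes them.

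Each group was 1 droplet single-cell library of sorted CD45- HER2+ cells from MMTV-HER2/Neu mice of the FvB strain. In this model a mammary tumor virus promoter drives the neu (Erbb2) oncogene in mammary epithelium. The early lung library (disseminated cancer cells, by its label) and the early lesion library (mammary gland) came from mice of 14 to 18 weeks without a palpable tumor. The late lung library and the primary tumor library came from mice of over 20 weeks that carried primary tumors. All 4 groups share the transgene, the strain and the sort, and no group without the transgene was analysed here. How many mice gave each library is not stated in the labels. With 1 library per group no difference between groups could be tested, and every interval below covers counting error, or the spread of cells within 1 library, only.

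Values given for the 4 libraries without names follow the order early lung, late lung, early lesion, primary tumor. A cell was a barcode with at least 500 unique molecular identifiers (UMIs, each standing for 1 captured RNA molecule), at least 250 genes and at most 20% of UMIs from the 13 mitochondrial mt- genes. This left 185, 210, 1318 and 434 cells, and no cell barcode was shared between libraries. The libraries held 743765 to 6366768 UMIs in all, and the median cell held 772, 811, 2360 and 1657.5 UMIs. The labels call all 4 cancer cells, but the lung libraries were led by lung markers: the airway secretory list (Scgb1a1 and others) made up 115919, 85947, 76.2 and 9.31 of every 1000000 counts (counts scaled to 1000000, CPM). The luminal mammary list gave 1164, 2196, 27085 and 56585 CPM in the 4 libraries, with 9, 9, 10 and 10 of its 10 genes detected. The alveolar type 1 list stood at 16443, 11817, 56.0 and 3519 CPM. The erythroid (red blood cell) list stood at 417, 15926, 1.78 and 3.83 CPM, so in the late lung it was above the alveolar type 1 list. The part that these differences of cell type play in the ribosomal protein results was not tested, and site and cell type cannot be told apart in comparisons of lung with mammary libraries.

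Ribosomal protein messages are among the most abundant of a growing cell, and the subunits need their proteins in equal amounts, so the genes are usually regarded as a coordinated set. Their messages carry a tract of pyrimidines at the very start, through which mTOR and the binding protein LARP1 are known to control their translation. Many have processed pseudogenes, DNA copies of their messages scattered over the genome, so that short reads from a ribosomal protein message can match several places.

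Ribosomal protein genes took a much larger share of the RNA in the mammary libraries than in the lung libraries. The median early lung cell had 10.6% of its UMIs from them (95% interval of the median 9.51 to 11.5) and the median late lung cell 8.73% (8.04 to 9.86). The median lesion cell had 24.4% (23.99 to 24.8) and the median tumor cell 23.0% (21.9 to 23.9). The quartiles of the cells were 8.02 and 13.5% early and 6.29 and 12.8% late in the lung, 20.7 and 28.7% in the lesion, and 17.9 and 28.2% in the tumor. The full ranges overlapped (1.38 to 25.3%, 0.320 to 43.8%, 4.05 to 50.2% and 2.48 to 49.5%), but few cells passed the median of the other organ: 2 of the 185 early lung cells lay above the early lesion median, and 11 of the 1318 early lesion cells lay below the early lung median. At the late stage, 8 of 210 lung cells were above the tumor median and 24 of 434 tumor cells were below the late lung median.

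**Figure D1:**
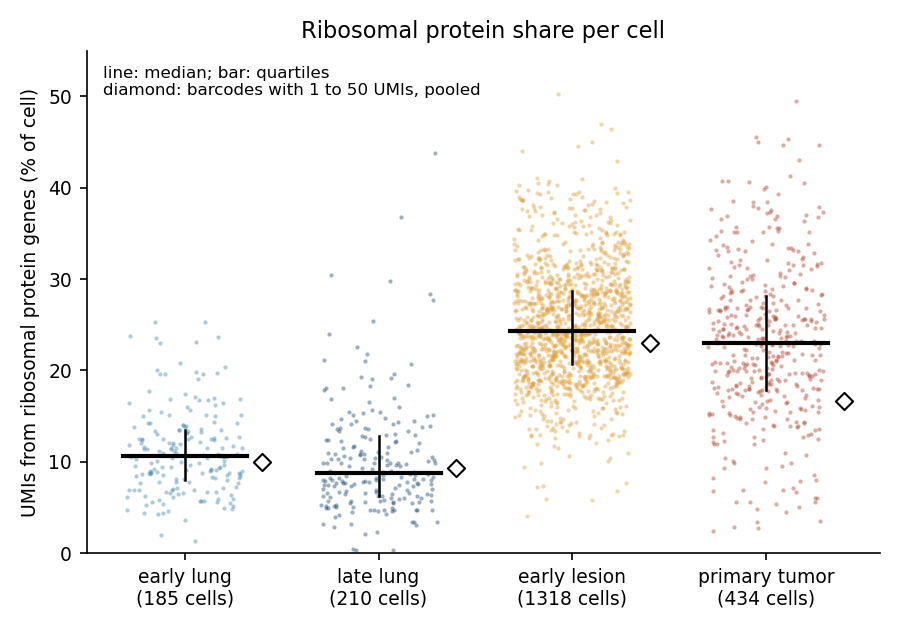
Share of each cell's UMIs that came from the 87 ribosomal protein genes (%), 1 point per cell in each of the 4 libraries; the horizontal line is the median, the vertical bar the quartiles, and the open diamond the pooled share in barcodes with 1 to 50 UMIs. The medians are 10.6, 8.73, 24.4 and 23.0% from left to right, and the diamonds of the lung libraries lie at 10.0 and 9.27%.

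The same contrast was present in RNA outside cells. Barcodes with 1 to 50 UMIs, which hold mostly free RNA, had 10.0, 9.27, 23.0 and 16.7% ribosomal protein UMIs in the 4 libraries. The pooled UMIs of the cells gave 9.95, 9.18, 24.6 and 21.2%. In both lung libraries the cells and the free RNA thus had nearly equal shares, and the share of cells above the free RNA of their own library was 55.1, 47.1, 59.3 and 79.3%. How much of a lung cell's count is free RNA was not tested.

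The gap was smaller among cells of low depth, and present there too. Among cells under 1000 UMIs the medians were 11.3% (130 cells), 10.1% (131 cells), 23.8% (277 cells) and 20.1% (122 cells). Summed over those cells the log2 ratio of lung over mammary library was -1.03 early and -0.999 late. The share went down with depth in the lung, to 6.43% in 11 early lung cells and 6.29% in 14 late lung cells of 2000 to under 4000 UMIs. In the tumor it went up, to 24.5% in 125 cells of that depth. Milk protein messages, which filled a median of 14.7% of an early lesion cell and 6.45% of a tumor cell, stand in the denominator. Without them and without mt- UMIs the medians were 11.1, 9.01, 29.6 and 24.9%.

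More ribosomal protein genes were also seen per cell in the mammary libraries. After each cell was thinned to 500 UMIs, the median cell showed 33, 30, 57 and 56 of the 87 genes. Before thinning the medians were 44, 43.5, 77 and 75.5 genes.

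Within the lung libraries cells led by different markers had these shares. In the early lung, 28 cells led by endothelial markers (Cldn5, Pecam1 and others) had a median of 12.5%, 64 cells led by alveolar type 1 markers (Ager, Hopx) had 8.79%, and 19 cells led by airway secretory markers had 8.71%. The late lung had 10.2% in 25 endothelial-led cells, 7.61% in 96 alveolar type 1-led cells and 7.47% in 26 airway-led cells. Among these 3 the endothelial-led cells had the highest median in both libraries (intervals 11.5 to 13.5% early and 7.98 to 12.9% late). The intervals overlapped that of the airway-led cells (5.62 to 15.5% early and 5.24 to 10.9% late). The interval of the alveolar type 1-led cells lay below the endothelial one early (7.74 to 9.51%) and overlapped it late (6.55 to 8.29%). Cells led by no list had 11.5% early (59 cells) and 11.6% late (47 cells), the latter above the endothelial-led cells. Only 4 late lung cells, picked after their values were seen, were led by luminal markers, and their shares ran from 24.02 to 43.8% with a median of 28.0%. The 1280 luminal-led cells of the early lesion and the 417 of the tumor had medians of 24.5 and 23.2%.

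Summed over cells, ribosomal protein genes were 2.47-fold lower in the early lung than in the early lesion (log2 ratio of CPM -1.30, 95% counting interval -1.32 to -1.28) and 2.31-fold lower in the late lung than in the primary tumor (-1.21, -1.22 to -1.19). The median member had a log2 ratio of -1.37 early (quartiles -1.61 and -1.002) and -1.22 late (-1.40 and -0.96), where the median over all genes tested was 0.18 and 0.01. Genes that differed at least 2-fold, with an interval that excluded 0 and at least 20 counts over both libraries, are counted as higher or lower. In the early comparison 64 of the 85 members that met this minimum were lower and 5 were higher, where 11.9% of all 8776 genes tested were lower and 22.1% higher. In the late comparison 62 of 85 were lower and 2 higher, against backgrounds of 17.4% and 20.6% of 8740 genes. Rpl39l and Rpl3l had too few counts for the comparisons.

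The other pair of comparisons was far closer. Between the primary tumor and the early lesion the summed log2 ratio was -0.21 (-0.22 to -0.21), the median member -0.20, and none of 85 members was called in either direction, against 24.5% of genes called higher and 6.68% called lower. The summed value depended on depth: 18 tumor cells with over 10000 UMIs held 54.5% of the UMIs in tumor cells and had a median share of 17.7%. Without cells over 10000 UMIs in either library the summed ratio was -0.02, and with cells under 1% mt- share alone it was 0.06. Cells under 1000 UMIs, which leave out all of those deep cells as well, gave -0.22, and the median tumor cell of 1000 to under 2000 UMIs had 22.9% where the median lesion cell of that depth had 25.1%. Between the late and the early lung the summed ratio was -0.12 (-0.14 to -0.09), 1 member was higher (background 8.7%) and none lower (background 3.45%). That ratio went to -0.02 without the 8 late and 1 early lung cells over 10000 UMIs, and to 0.07 with a minimum of 1000 UMIs per cell.

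The levels of single members were ordered much alike in libraries from the same organ. Spearman's rho of the 87 CPM values was 0.965 between the lung libraries, 0.959 between the mammary libraries, 0.771 between the early lung and the early lesion, and 0.889 between the late lung and the primary tumor. The early lung with the tumor gave 0.813 and the late lung with the lesion 0.846. These are descriptions across genes that share a chemistry and an annotation. The counts are of message ends, 1 per molecule, so CPM are not divided by gene length, although the share of reads assigned can differ between genes. Rpl41, which encodes a very short large-subunit protein, was highest everywhere, with 4129, 3619, 9324 and 8855 CPM. Next came Rps29 and Rps19 in the lung libraries (3167 and 3015 CPM early, 3065 and 2614 late), and Rpl32 in the mammary libraries (6507 and 5213 CPM). The 5 highest also included Rpl37a, at 2332 and 2221 CPM in the lungs and 5016 CPM in the tumor. Rpl13 was among them in the late lung (1925 CPM), the lesion (5555) and the tumor (4945), Rps19 in the lesion (6113) and the tumor (4604), Rpl13a in the lesion (5451) and Rps27rt in the early lung (2288).

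Genes with Rps symbols (small subunit) and Rpl symbols (large subunit) moved by nearly the same amount. These classes go by symbol, so they include Rps19bp1 and Rpl6l. The median log2 ratio was -1.35 for 34 Rps and -1.37 for 51 Rpl genes in the early comparison, and -1.19 and -1.22 in the late one. Rps genes made up 43.6, 42.3, 41.1 and 40.2% of ribosomal protein UMIs in the 4 libraries. The stalk of the large subunit, which recruits translation factors, is built from Rplp0, Rplp1 and Rplp2 and sits on the protein of Rpl12. Rplp0, Rplp1 and Rplp2 together held 3.21, 3.60, 4.84 and 4.31% of ribosomal protein UMIs in the same order, so their share was lower in the lung than in the mammary libraries.

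Rplp0, the base of the stalk, was the most reduced member of the lung in both comparisons. Its counts in the 4 libraries were 173, 457, 20458 and 7615, which is 849, 1109, 5210 and 4171 CPM. The log2 ratio was -2.61 early (-2.84 to -2.40) and -1.91 late (-2.05 to -1.77). Rpl12 had 55, 163, 6416 and 2296 counts (270.0, 396, 1634 and 1257 CPM) and log2 ratios of -2.58 (-3.01 to -2.22) and -1.66 (-1.91 to -1.44). In the early comparison these were the members that lay at least 1 log2 unit below the median member with an interval that excluded it. The other stalk genes stayed nearer the median: Rplp1 at -1.63 early and -1.27 late, and Rplp2 at -1.37 and -1.07. Rpsa, a small-subunit protein also known as the laminin receptor, was at -1.89 and -1.64.

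A set of 11 members lay at least 1 log2 unit above the median member in the early comparison, and 10 of them did so in the late one. Counting those below as well, 13 of 85 members stood apart early and 10 late. Among all genes tested, 33.9% early and 38.0% late lay at least 2-fold from the median of all genes. Many of those genes rest on far fewer counts than most members, and the difference between the shares was not tested. The plot of each gene in both lung comparisons shows the same names at its upper right.

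**Figure D2:**
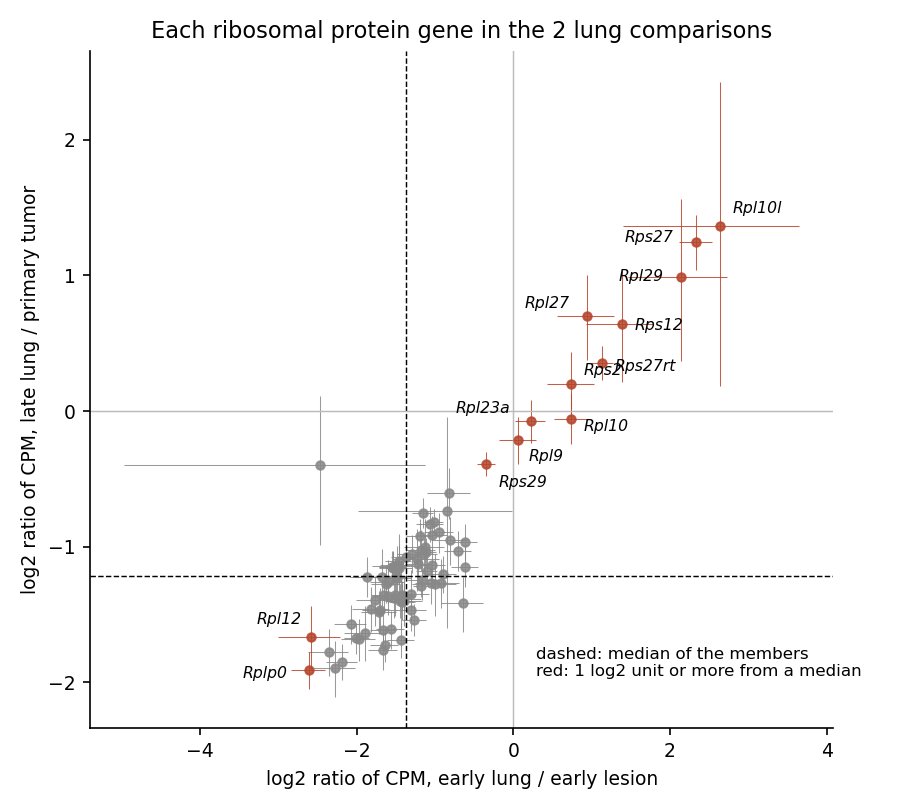
Log2 ratio of CPM of each of the 85 members tested, early lung over early lesion (x) and late lung over primary tumor (y), with 95% counting intervals; dashed lines mark the medians of the members (-1.37 and -1.22), and red points lie at least 1 log2 unit from the median in at least 1 comparison. Rps27, Rpl29 and Rpl10l lie farthest above the medians, and Rplp0 and Rpl12 lie farthest below among the red points.

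Rps27, a small-subunit zinc-binding protein, had 239, 305, 919 and 570 counts. This was 1173, 740, 234 and 312 CPM, higher in both lung libraries than in either mammary library, with log2 ratios of 2.33 (2.11 to 2.53) early and 1.25 (1.04 to 1.45) late. Its retrogene Rps27rt, a copy of the message that went back into the genome, had 466, 679, 4092 and 2355 counts and ratios of 1.14 (0.99 to 1.27) and 0.35 (0.23 to 0.48). It was also higher in the lung, by less.

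Rpl29 (large subunit) had 27, 36, 120 and 81 counts in the same order, with log2 ratios of 2.14 (1.46 to 2.73) and 0.99 (0.37 to 1.56). Rps12 (small subunit) had 53, 69, 395 and 197 counts, with ratios of 1.38 (0.93 to 1.79) and 0.64 (0.22 to 1.04). Rpl10l, a retrogene of Rpl10 known from the testis, rested on 10, 12, 32 and 21 counts, with ratios of 2.64 (1.40 to 3.65) and 1.37 (0.18 to 2.43). In each of these 3 the lung level in CPM was above the mammary level at both stages, on few counts.

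The rest of the set were Rpl27 (0.94 early, 0.70 late), Rpl10 (0.74 and -0.06), Rps2 (0.74 and 0.20), Rpl23a (0.22 and -0.07) and Rpl9 (0.06 and -0.21), with Rps29 (-0.35) in the early comparison alone by this measure. Rps29 was at -0.39 in the late comparison, 0.83 above the median. The difference between the stages was not tested.

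Most of these members were scarce in the mammary libraries, where the median member stood at 2799 CPM (lesion) and 2332 CPM (tumor). In the early lesion Rpl10l had 8.15 CPM, Rpl29 30.6, Rps12 101, Rpl27 183, Rps2 302 and Rpl10 554. The lesion level is also the denominator of the ratio, so these values do not stand apart from it. In RNA of barcodes with 1 to 50 UMIs, 12 members stood apart early and 6 late, where 39.7% and 40.7% of all genes tested in that RNA lay at least 2-fold from their median.

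Copies in the genome were counted for each member, since reads that match several genes can be dropped or assigned elsewhere. Every 50-base stretch of the last 300 coding bases was looked for in the transcripts of all other genes of GENCODE M21, which may not be the annotation the authors used. Bases after the coding end were not searched, although the counts are of message ends. Rpl29 had such a stretch in 59 other genes, Rps2 in 55, Rpl23a in 28, Rps12 in 25, Rpl10 in 14, Rpl27 and Rpl9 in 11, and Rps27 and Rps27rt in 9. Rps29 had one in 7, and Rpl10l, which had the highest early ratio of the members tested, in 1. The median was 11 genes for the 11 members above the median of the early comparison and 8 for the rest. Members with many copies that lay below the early median exist as well: Rpl7a with 74 (log2 ratio -1.68 early) and Rpl17 with 45 (-2.19). Rpl21, with 67, was at -0.62, which is 0.75 above that median and short of the limit of 1. How the authors' counting handled reads with several matches is not given in the sources used here, and the part of the copies in these ratios was not tested.

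**Figure D3:**
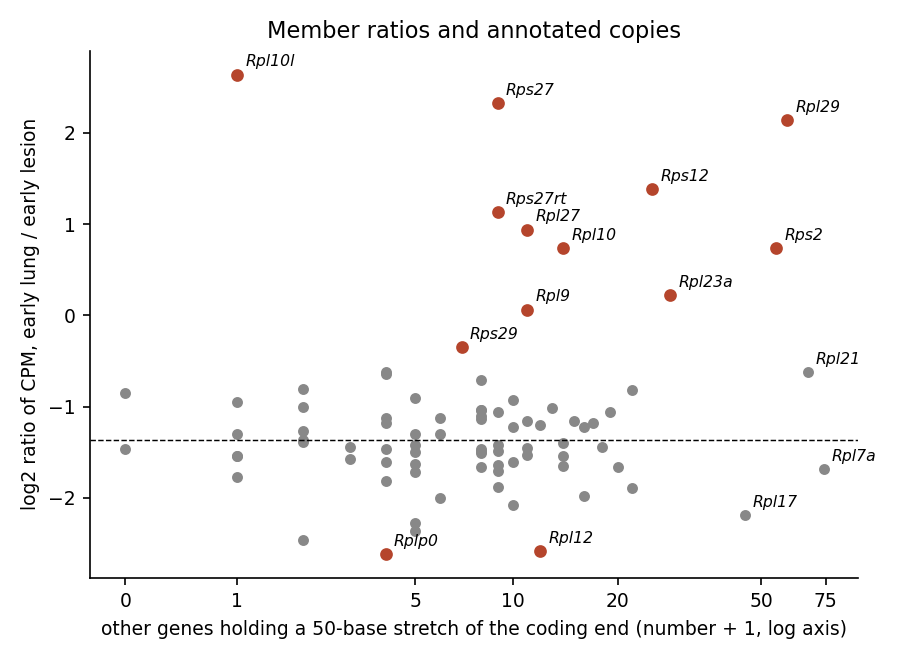
Log2 ratio of CPM, early lung over early lesion, of each member tested (y) against the number of other annotated genes that hold a 50-base stretch of its coding end (x, log axis of the number plus 1); red points lie at least 1 log2 unit from the median of the members, drawn as a dashed line at -1.37. Rpl29 and Rps2, with 59 and 55 such genes, lie above the line, and Rpl7a and Rpl17, with 74 and 45, lie below it.

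For some of these members the files also count a pseudogene entry of the same name, and for Rps12, Rpl10, Rpl27, Rpl23a and Rpl9 the parent's entry held the smaller part in all 4 libraries. Rps2 is the exception, with 102 counts against 24 for Rps2-ps6 in the early lung and 1184 against 227 in the lesion. Rps12-ps3 had 102, 163, 3962 and 1626 counts, which was 90.9% of the UMIs of Rps12 and Rps12-ps3 in the lesion but 65.8% in the early lung. With both entries added, the log2 ratio was -0.54 (-0.78 to -0.31) early and -0.82 (-1.03 to -0.63) late, against 1.38 and 0.64 for Rps12 alone. Rpl10-ps3 had 225, 447, 7357 and 4243 counts, and Rpl10 with it came to -0.26 early and -0.76 late. These sums lie 0.83 (Rps12) and 1.11 (Rpl10) above the early median of the members.

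Adding the entry did less for others. Rpl23a with Rpl23a-ps3 came to -0.22 early and -0.50 late, Rpl27 with Rpl27-ps3 to 0.46 and 0.24, Rpl9 with its 2 entries to 0.11 and -0.27, and Rps2 with Rps2-ps6 to 0.79 and 0.24. In the opposite direction, Rpl13 fell with the set (-1.40 early) while Rpl13-ps3 was at 0.55, and Rpl21-ps4 was at 2.68 with 59 early lung counts and 179 lesion counts. The sums with -ps entries were chosen after the ratios were seen. Whether a -ps count comes from the pseudogene or from the parent's message cannot be told apart in these files.

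Rps27 and its relatives show how close such copies can be. The last 120 coding bases are printed for Rps27 (chr3:90212522-90213651, minus strand), Rps27rt (chr9:114982366-114982739, minus strand) and Rps27l (chr9:66946086-66949516, plus strand), with gene positions on mm10 from GENCODE M21. Capitals mark letters that differ from Rps27.
Rps27: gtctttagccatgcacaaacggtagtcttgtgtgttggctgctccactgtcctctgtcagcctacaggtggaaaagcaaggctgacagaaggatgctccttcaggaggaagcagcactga
Rps27rt: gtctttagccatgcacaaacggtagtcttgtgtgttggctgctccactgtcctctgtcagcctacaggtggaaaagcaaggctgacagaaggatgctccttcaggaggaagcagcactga
Rps27l: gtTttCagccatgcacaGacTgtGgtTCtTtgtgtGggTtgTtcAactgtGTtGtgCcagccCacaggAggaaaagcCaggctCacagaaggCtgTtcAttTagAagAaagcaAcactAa
Rps27rt has no difference from Rps27 in all 255 coding bases, so a read within the coding sequence fits both. Rps27l differs at 28 of these 120 bases and at 61 of all 255.

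The starts of the same genes show where the copy begins. The 30 bases before and 30 after the annotated start are taken from RefSeq on GRCm38.p6, at chr3:90213619-90213678 (minus strand) for Rps27 and chr9:114982710-114982769 (minus strand) for Rps27rt, with CTTTC in capitals.
Rps27 start: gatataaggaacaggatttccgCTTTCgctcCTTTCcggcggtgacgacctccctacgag
Rps27rt start: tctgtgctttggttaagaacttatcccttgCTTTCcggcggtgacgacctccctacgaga
The longest run that both printed stretches hold is 29 bases, and it begins at base 31 of the Rps27rt stretch, its annotated first transcribed base. In Rps27 it begins at base 32 and goes to the last printed base, so the printed window sets its end. CTTTC was searched because it opens with the pyrimidines of the start tract. Within 20 bases before to 30 after the start, it was found on the transcribed strand in 23 of the 66 members that have a promoter in the table (34.8%), against 7.66% of all 27025 genes. On the opposite strand it was in 10.6% of members and 7.30% of genes. CCGGAAG, the core site of ETS factors, was in 10.6% of members and 1.98% of genes on the transcribed strand, and in 4.55% and 1.94% on the opposite strand. Neither motif contains the other, and a match is a description of letters only.

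The share of the paralog Rps27l against Rps27 differed widely between organs. Rps27l, a paralog known as a p53 target, had 125, 223, 3784 and 2646 counts. In the lung it made up 34.3% of the UMIs of the pair early (exact binomial 95% interval 29.5 to 39.5) and 42.2% late (38.0 to 46.6). The lesion had 80.5% (79.3 to 81.6) and the tumor 82.3% (80.9 to 83.6). Its own log2 ratio of CPM was -0.65 early and -1.42 late, so the shift of the pair held a lower Rps27l and a higher Rps27 together. In free RNA the share was 38.0, 47.9, 82.5 and 84.0%. Rps27rt made up 66.1, 69.0, 81.7 and 80.5% of Rps27 plus Rps27rt, but with identical coding sequences the files cannot say which gene a coding read came from. With Rps27rt added to Rps27, a sum chosen after the data were seen, Rps27l made up 15.1% (12.7 to 17.7), 18.5% (16.3 to 20.8), 43.0% (42.0 to 44.1) and 47.5% (46.2 to 48.8). The lung shares stayed below the mammary shares, at a lower level throughout.

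**Figure D4:**
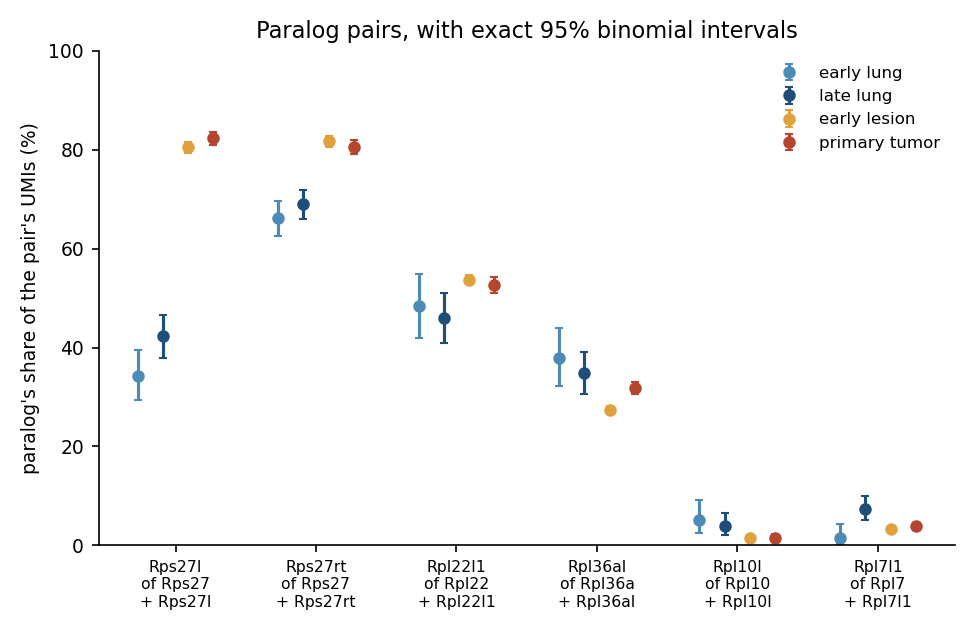
Share of a pair's UMIs that came from the paralog (%), for 6 pairs in the 4 libraries, with exact 95% binomial intervals. Rps27l lies at 34.3 and 42.2% in the lung libraries and at 80.5 and 82.3% in the mammary libraries, while Rpl22l1 stays between 46.0 and 53.7%.

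Rpl22 and its paralog Rpl22l1 were expressed at nearly equal levels everywhere. Rpl22l1 had 119, 180, 6236 and 2083 counts, which is 48.4% (42.0 to 54.8), 46.0% (41.0 to 51.1), 53.7% (52.8 to 54.6) and 52.7% (51.1 to 54.2) of the pair. The late lung interval ends where that of the tumor begins, and the early intervals overlap.

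Rpl36al, whose 321 coding bases are 87.9% identical to those of Rpl36a, made up 37.9% (32.3 to 43.9), 34.8% (30.6 to 39.1), 27.4% (26.7 to 28.1) and 31.9% (30.7 to 33.1) of that pair. The lesion had the lowest share, with an interval apart from the other 3, and the late lung and tumor intervals overlap. Rpl6l made up 42.0, 41.7, 39.9 and 41.8% of Rpl6 plus Rpl6l, a pair added after the gene table was read.

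The paralogs with restricted expression were near 0. Rpl39l, known from the testis, had 0 counts in both lung libraries and the tumor and 1 in the lesion. The exact intervals of its share of Rpl39 plus Rpl39l reached 1.51% (early lung), 0.841% (late lung) and 0.0561% (tumor). Rpl3l, known from striated muscle, had 4 counts in the tumor, 0.0734% of its pair (0.0200 to 0.188), and 0 in the other libraries. The exact intervals there reached 1.81% (early lung), 0.887% (late lung) and 0.0224% (early lesion). Rpl10l made up 5.05% (2.45 to 9.09), 3.83% (1.996 to 6.60), 1.45% (0.993 to 2.04) and 1.49% (0.925 to 2.27) of Rpl10 plus Rpl10l. Its coding bases are 84.8% identical to those of Rpl10. Rps4l, the partner set for Rps4x, was not analysed here.

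Rpl7l1, a paralog of Rpl7 that acts in ribosome assembly, was the member that differed between the lung libraries. It had 3 early and 34 late lung counts, which is 1.52% (0.314 to 4.36) and 7.28% (5.09 to 10.0) of Rpl7 plus Rpl7l1, against 3.31 and 3.88% in the mammary libraries. The log2 ratio of CPM, late over early lung, was 2.28 (0.82 to 4.83). In free RNA of the same libraries the share was 4.10 and 6.72%, on 13 and 33 counts. The 8 late lung cells over 10000 UMIs held 42.2% of the UMIs in late lung cells. Without cells over 10000 UMIs Rpl7l1 still stood apart, on 17 late lung counts, with shares of 1.55% early and 5.70% late. It did not reach the stricter minimum of 100 counts.

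In the primary tumor the share was lower in cells with more mitochondrial RNA. The 302 cells with under 1% of UMIs from mt- genes had a median of 25.05% (24.1 to 26.1) and the 132 cells at 1% or more had 17.4% (15.8 to 18.7). Leaving mt- UMIs out of the denominator gave 25.2 and 18.4%. Across ranges of mt- share the median was 25.8% under 0.25%, 25.6% from 0.25 to 0.5%, 23.96% from 0.5 to 1%, 18.6% from 1 to 2% (19 cells), 20.3% from 2 to 5%, 17.8% from 5 to 10% and 12.8% from 10 to 20%. Spearman's rho over the 434 cells of this library, a description, was -0.44. The same split gave 24.5 and 23.5% in lesion cells (1207 and 111 cells), 8.99 and 10.9% in early lung cells, and 9.44 and 8.49% in late lung cells.

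**Figure D5:**
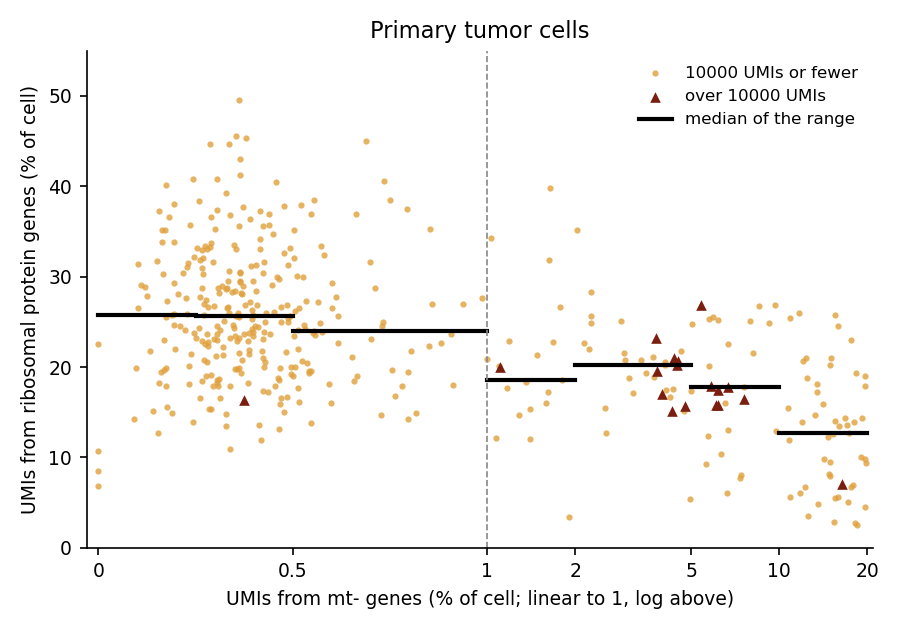
Share of UMIs from ribosomal protein genes (%, y) against the share from mt- genes (%, x, linear to 1 and logarithmic above) in the 434 primary tumor cells; triangles are cells over 10000 UMIs, bars are medians of ranges of mt- share, and the dashed line marks 1%. The medians go from 25.8% in the lowest range to 12.8% in the highest, and 17 of the 18 triangles lie at 1% or above.

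The 2 parts of the tumor differed in depth in both directions. The median cell had 2005 UMIs under 1% and 1011.5 at 1% or more, while 17 of the 18 cells over 10000 UMIs were in the second part. The summed log2 ratio, 1% or more over under 1%, was -0.49 (-0.50 to -0.48), and -0.59 without those deep cells. None of the members was higher (background 25.9%) and 2 were lower (background 6.68%), while the median member was at -0.49 and the median of all genes at 0.06. Without the deep cells the median member was at -0.58 and the median of all genes at -0.23. No member lay apart from the median of the set, where 33.0% of all genes tested lay at least 2-fold from their own median.

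The members called lower were Rps26 and Rpl7l1. Rps26, a small-subunit protein at the exit of the message channel, went from 3108 CPM under 1% to 1115 at 1% or more, a log2 ratio of -1.48 (-1.58 to -1.38). Without the deep cells it was at -0.56 (-0.75 to -0.38), so the size of its difference rested on those cells. Rpl7l1 went from 166 to 74.5 CPM (-1.15, -1.58 to -0.74), and to -0.85 (-1.95 to -0.01) without them. Both calls thus ended without the deep cells, where Rps27 alone was called lower (background 5.77%), on 19 counts at 1% or more and 261 under 1% (-1.32, -2.11 to -0.68). With them Rps27 was at -0.42. For Rplp0 the values were 5301 and 3448 CPM (-0.62), and for Rpl41 10877 and 7563 CPM (-0.52).

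Outside the symbol rule, other ribosome components were looked up in the files. Gnb2l1 (Rack1), a scaffold of the small subunit, had 65, 120, 4305 and 1568 counts and log2 ratios of -1.77 early and -1.55 late, like the main set. Fau, which encodes a ubiquitin-like protein fused to a ribosomal protein, went the other way. Fau had 87, 119, 657 and 316 counts and ratios of 1.36 (1.01 to 1.68) and 0.74 (0.42 to 1.05).

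Translation factors were lower in the lung in part. Of 38 tested, 19 were lower and 1 higher in the early comparison, and 15 and 1 in the late one, with median log2 ratios of -1.02 and -0.79. The backgrounds were 11.9% lower and 22.1% higher early, and 17.4% lower and 20.6% higher late. Pabpc1, the poly(A)-binding protein, had 40 lung and 4037 lesion counts early (-2.37, -2.88 to -1.94), and 107 lung and 1336 tumor counts late (-1.49). Eif4a1, the helicase of the cap-binding complex, was at -2.10 early, and Eef2, the translocation factor, at -1.46 late. Between tumor and lesion 1 of 38 factors was higher and none lower (backgrounds 24.5% and 6.68%). Between the lungs none of 37 was called (backgrounds 8.7% higher and 3.45% lower).

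Ribosome assembly factors showed a similar part. Of 43 tested, 19 were lower and 2 higher early, and 13 lower and 0 higher late, with medians of -0.92 and -0.53 and the same backgrounds (11.9 and 22.1% early, 17.4 and 20.6% late). Npm1, the abundant nucleolar chaperone, had 63, 127, 6734 and 1367 counts (-2.46 early, -1.28 late). Unlike the ribosomal proteins, some assembly factors were also lower in the tumor than in the lesion: 6 of 45 were lower and 3 higher, with Npm1 at -1.20 (-1.28 to -1.11), Fbl, which methylates ribosomal RNA, at -1.47 (-1.73 to -1.23) and Nhp2, of the pseudouridine complex, at -1.19 (-1.39 to -0.99). The background of genes called lower there was 6.68%, and the difference from the ribosomal protein genes was not tested.

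The mitochondrial ribosomal proteins, which serve the separate ribosome of the mitochondrion, had medians between those of the cytosolic set and of all genes. In the early comparison 26 of 76 were lower and none higher (median -0.60), and in the late one 20 of 77 were lower and 1 higher (median -0.52), again against 11.9% lower and 22.1% higher of all genes early, and 17.4% and 20.6% late. Mrps6 had 7 counts against 625 early (-2.11) and 15 against 354 late (-2.37).

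Of the growth control genes, 3 of 12 tested were lower and 2 higher in the early comparison (median -0.31), and 3 of 15 lower and 2 higher in the late one (median 0.06), against backgrounds of 11.9% lower and 22.1% higher early and 17.4 and 20.6% late. Tsc2, which holds mTOR signalling back, was higher in the early lung on 9 lung and 17 lesion counts (3.39, 2.003 to 4.60). Mtor itself was higher in the late lung on 11 lung and 13 tumor counts (1.92, 0.61 to 3.18). Myc, which drives ribosomal genes, had 0, 0, 255 and 86 counts. If 3 counts are taken as the limit that 0 allows, Myc was 4.41-fold lower in the early lung than in the early lesion. On the same basis it was 6.47-fold lower in the late lung than in the primary tumor. These folds leave out the counting error of the mammary library. The exact counting intervals of the Myc ratio, which include it, reached up to log2 ratios of -1.83 early and -2.36 late. Pdcd4, an inhibitor of the Eif4a1 helicase, had 2 lung and 879 lesion counts early, and 11 lung and 344 tumor counts late (-2.76). Between tumor and lesion 6 of 15 growth control genes were higher and none lower (backgrounds 24.5% and 6.68%). They were led by Deptor, an inhibitor of mTOR, with 295 tumor and 38 lesion counts (4.04, 3.57 to 4.59). Here too the tumor cells over 10000 UMIs are included.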

How the data were processed

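The authors deposited 1 matrix of whole UMI counts per library, with 737280 barcodes listed and not filtered to cells. Per the labels, libraries were made with 10X Chromium 3′ v2 chemistry, and per the submitters' processing notes the build was mm10. The counting software, the annotation release and the handling of reads with several matches are not given in the sources used here. Cells were kept by the limits in the report, no doublet caller was run, and counts were summed over cells and scaled to counts per 1000000 (CPM). Log2 ratios had 0.5 counts added, with exact 95% intervals for a pair of Poisson counts, and shares had Clopper-Pearson intervals. UMIs are counted molecules. Intervals of ratios and of pair shares cover counting error only, and intervals of medians cover the spread of cells within 1 library only. Marker-led cells held at least 3 UMIs of 1 list and at least 2 times those of any other. The ratio function was tested on simulated data. The members and lists were chosen with earlier results of these data known. Named members were the 5 highest of each library, outliers, paralogs, stalk genes and Rpsa, and, of each related list, the genes farthest from the median of all genes. Python 3.11.15, numpy 2.4.6, scipy 1.17.1 and pandas 2.3.3 were used. All 87 member IDs were found in GENCODE M21, and 66 members had a RefSeq promoter. One gene outside the symbol rule is not reported here.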

Additional observations from a re-analysis of the deposited data

Results flagged for a closer look

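The -ps entries of ribosomal protein symbols, left out by the symbol rule, held counts in every library, well above the limit that a count of 0 allows. The 16 entries had 2080 UMIs in early lung cells, 3653 in late lung cells, 49875 in early lesion cells and 26081 in primary tumor cells, which is 1.02, 0.887, 1.27 and 1.43% of all UMIs in cells. Rps18-ps3 alone had 12481 in the early lesion. Their median log2 ratio was 0.55 in the early and 0.01 in the late comparison of lung with mammary library. The members had -1.37 and -1.22 there, and all genes tested 0.18 and 0.01. The summed share of the -ps entries was even so lower in each lung library than in its mammary partner.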

How the results depend on the processing

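No paired analysis was possible because each group is 1 library. Of 212 alternatives 149 kept their value within its interval or within 1.5 times a count, 60 moved and 3 turned direction, and no comparison of lung with mammary library turned. With a minimum of 1000 UMIs the median share was 8.08% in the early and 7.48% in the late lung, and the summed log2 ratio -1.55 early, -1.27 late and 0.0685 between the lungs. With -ps entries the shares were 11.7% (early lung), 25.6% (early lesion) and 24.8% (tumor), and the ratios -1.24 early, -1.17 late and -0.19 for tumor over lesion. Without mt- and milk UMIs the shares were 29.6% in the lesion and 24.9% in the tumor, and the ratios -1.52, -1.35 and -0.29. Without mt- UMIs alone the ratios were -1.26, -1.22 and -0.16. With at most 10% mt- UMIs the tumor share was 23.9%, and the ratios -1.24 late and -0.19 for tumor over lesion. Without cells over 10000 UMIs the ratios were -1.28 early, -1.28 late, -0.0195 for tumor over lesion and -0.0203 between the lungs. With each cell weighted equally they were -1.16, -1.17 and -0.11. In settings added after seeing the data, cells under 1000 UMIs gave -1.03, -0.999, -0.22 and -0.19, and cells under 1% mt- share gave -1.54, -1.30, 0.0587 and 0.30. With at least 100 counts, 1 member was higher in the late comparison, and 0 were higher or apart between the lungs. With no minimum beyond 1 count, 1 member was higher in the tumor than in the lesion, and scaled to the median of all genes 1 was lower. The share of all genes called is not given for these changed settings. A split at 0.5% gave 19.6% for the tumor cells above it. The causes were not tested. Among paralog shares 20 of 76 alternatives moved. Depth limits the lung most: 203676 and 412032 UMIs in cells leave scarce members on few counts.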
